A study of Mus musculus with 4 samples.

Results

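BCL6 peaks that lie in exons, untranslated regions (UTRs) and gene ends, away from promoters, were described in adipocyte nuclei of 2 fat depots, the inguinal (subcutaneous) and the perigonadal (visceral) depot. They were the peaks annotated as exon, 5′ UTR, 3′ UTR, non-coding exon or TTS (transcription termination site, a window around the end of a gene), and more than 1000 bp from the nearest annotated promoter. By this rule 63 of 1785 inguinal peaks (3.53%) and 191 of 3956 perigonadal peaks (4.83%) were members, 254 of 5741 peaks in all. Chromatin immunoprecipitation followed by sequencing was done in C57BL/6 mice that carried Adipoq-Cre and the Cre-dependent nuclear membrane tag Sun1-sfGFP-myc, whose nuclei were collected on beads against the myc epitope. Adipoq-Cre acts in adipocytes, so the tag marks their nuclei, and all samples of both depots carried the same alleles. Each depot had 1 BCL6 library, made with a custom polyclonal guinea pig antibody against mouse Bcl6, and 1 input library made without an antibody. The inputs were not analysed here, and the sources used here do not give the age of the mice or how many of them went into a library.

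BCL6 is a zinc finger repressor that recruits corepressors and histone deacetylases, and its binding motif resembles that of STAT proteins. It is best known from germinal centre B cells and from liver, where it opposes STAT5 at growth hormone-responsive genes. Transcription factors are usually studied at promoters and enhancers, and enhancer-like sites can also lie inside coding exons, in 3′ UTRs or just past the end of a gene. Such a position need not point to the gene that contains it, since the closest promoter may belong to a neighbour.

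Since each depot had a single BCL6 library, the depots were not tested against each other and no p-value is given. Shares carry Wilson 95% intervals. The deposited score of a peak was a whole multiple of a step, read as 1 sequenced tag, which was 0.752 in inguinal fat and 0.882 in perigonadal fat. The range after a score is the exact Poisson 95% interval of its tags. Both kinds of interval cover counting error only. Scores are scaled within each list, so values of a site in both lists are given side by side without a direction between depots. Coordinates are of mm10. No peak of either list lay in the span of Sun1, the gene whose product forms the tag.

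In inguinal fat the 63 peaks comprised 18 in exons, 1 in a 5′ UTR, 20 in 3′ UTRs, 19 at gene ends and 5 in non-coding exons. In perigonadal fat the 191 peaks comprised 76 in exons, 0 in 5′ UTRs, 45 in 3′ UTRs, 58 at gene ends and 12 in non-coding exons. Exons thus held 28.6% of the inguinal members (18.9 to 40.7%) and 39.8% of the perigonadal members (33.1 to 46.9%), with intervals that overlap. Middle exons held most of the exon peaks, 15 of 18 inguinal and 56 of 76 perigonadal ones, and all 20 and 45 peaks in 3′ UTRs lay in the last exon of their transcript. These counts follow in part from the rule. The distance limit removes peaks near gene starts, and 3′ UTRs and gene ends form classes of their own. The share of middle exons among all exons was not computed. All members were autosomal, 0 of 63 and 0 of 191 being on X or Y, which allows shares of up to 5.75% and 1.97% by the Wilson interval. Of the remaining peaks 15 of 1722 inguinal (0.871%) and 30 of 3765 perigonadal ones (0.797%) were on these chromosomes.

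The median height of these peaks equalled that of the remaining peaks of their list. In inguinal fat the members scored between 7.52 and 34.6, and the median was 9.03 for the members and 9.03 for the remaining peaks. In perigonadal fat the members scored between 7.05 and 40.6, and the median was 8.82 for both. The tallest peaks were not among the members, as the remaining peaks reached 200.1 in inguinal and 260.1 in perigonadal fat. Members of more than 12 tags numbered 31 in inguinal fat, 49.2% of the members (37.3 to 61.2%), beside 41.3% of the whole list. In perigonadal fat they numbered 35, 18.3% of the members (13.5 to 24.4%), beside 24% of the whole list, and both intervals include the share of the list. The deposited focus ratio, a measure of how closely the tags gather at the centre of the peak, had a median of 0.800 for members and 0.812 for the remaining peaks in inguinal fat, and 0.833 for both in perigonadal fat.

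**Figure D1:**
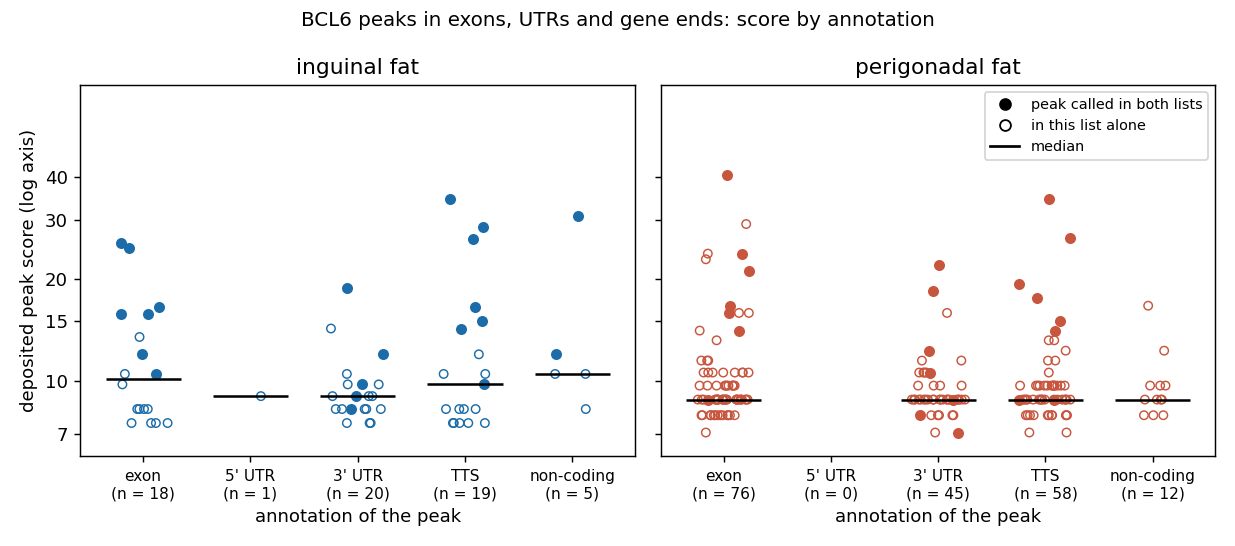
Deposited peak score (log axis) of each BCL6 peak in exons, UTRs and gene ends, by annotation and depot. Each point is a peak, filled where the other list has an overlapping peak, and black lines are medians. Most points lie near 9, and the tallest point of each list is filled, at 34.6 in inguinal and 40.6 in perigonadal fat. Open points reach 14.3 in inguinal and 29.1 in perigonadal fat.

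Of the members, 21 of 63 inguinal peaks (33.3%, 22.9 to 45.6%) and 22 of 191 perigonadal peaks (11.5%, 7.73 to 16.8%) overlapped a peak of the other list by at least 1 bp. Over the whole lists the shares were 28.5% and 12.8%, so the members' shares were near this background, and the intervals include it. Sharing followed peak height in the members as in the remaining peaks. In inguinal fat 2 of 32 members of up to 12 tags had a partner, against 70 of 1015 remaining peaks. Of members with 13 to 20 tags 8 of 20 had one, against 185 of 424 remaining peaks. All 11 inguinal members of more than 20 tags had one (74.1 to 100%), against 232 of 283 remaining peaks (82.0%), a share within that interval. In perigonadal fat, in the same order of tags, the counts with a partner were 7 of 156 members against 87 of 2850 remaining peaks, 7 of 24 against 172 of 594, and 8 of 11 against 227 of 321.

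**Figure D2:**
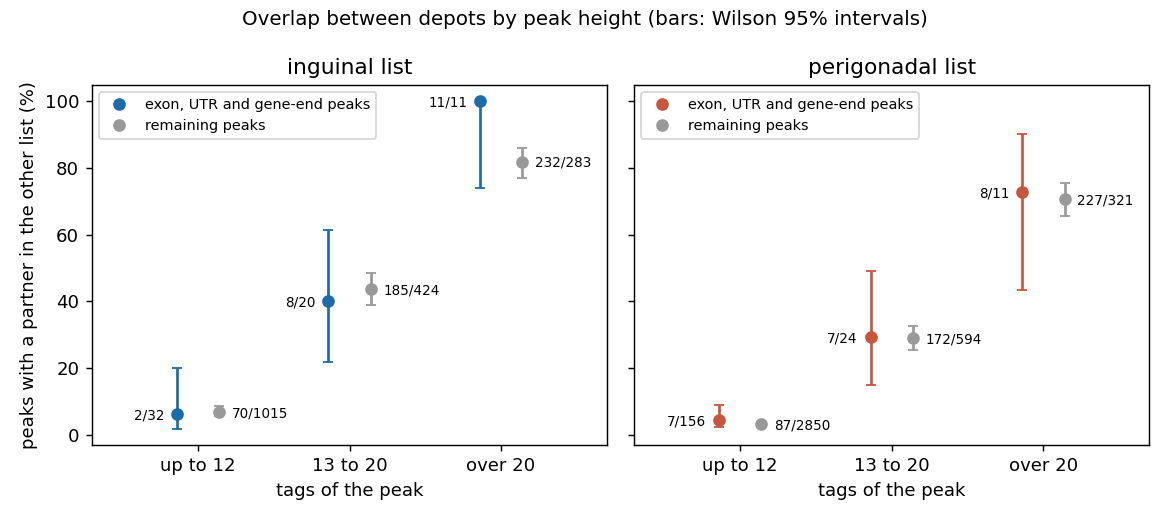
Share of peaks (%) that overlap a peak of the other list, by number of tags, for exon, UTR and gene-end peaks (coloured) and the remaining peaks of the list (grey). Bars are Wilson 95% intervals and labels give counts. The intervals of both groups overlap in each band of each list, and the share climbs with the number of tags, to 11 of 11 inguinal and 8 of 11 perigonadal members of more than 20 tags.

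The overlapping peaks made up 24 sites, of which 19 were members in both lists, 2 in the inguinal list alone and 3 in the perigonadal list alone. At the other 5 sites, in Sesn1, C330018D20Rik, Ccs, Hivep3 and Anapc5, the partner was annotated as an intron of the same gene. The centres of paired peaks lay 9 to 132 bp apart, with a median of 33 bp, beside 27 bp at the other 484 shared sites. Of the 19 sites, 16 had the same class in both lists and 13 the same annotation to the transcript. In 16 of the 24 sites both peaks rested on more than 12 tags, and in 2 neither did.

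Of the 24 sites, the one with the highest inguinal score lay at the end of Gpr179, which encodes an orphan receptor of retinal bipolar cells, at chr11:97331221-97331423. It scored 34.6 in inguinal (25.3 to 46.2) and 34.4 in perigonadal fat (24.4 to 47.0). The closest promoter, 15.6 kb away, belongs to Mrpl45, a mitochondrial ribosome gene. A perigonadal peak of 17.6 without a partner lay in intron 1 of Gpr179. The one with the highest perigonadal score was in exon 1 of 4 of Pcdhgc5, a gamma-protocadherin cell adhesion gene, at chr18:37820508-37820710, with 24.8 in inguinal (17.1 to 34.9) and 40.6 in perigonadal fat (29.7 to 54.1). Protocadherin genes of this cluster are close relatives, and the sources used here do not say how reads that match several copies were handled.

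Exon 3 of 6 of Nfkbia, the gene for the inhibitor that holds NF-kappaB in the cytoplasm, held an inguinal peak at chr12:55491094-55491296 that scored 25.6 (17.7 to 35.7). The perigonadal peak there scored 17.6 (10.8 to 27.2), with its centre shifted by 61 bp. Its annotation is the end of a transcript, NR_035430, which the RefSeq table assigns to the microRNA gene Mir1198 on chromosome X. The perigonadal peak was therefore counted as having no matched gene, although its nearest promoter, 1.39 kb away, is that of Nfkbia. The peak at Bmf, which encodes a BH3-only activator of apoptosis, also changed its label: it was the last exon of the non-coding transcript NR_138603 in inguinal fat, with 30.8 (22.1 to 41.8), and the 3′ UTR of the coding transcript in perigonadal fat, with 18.5 (11.5 to 28.3), at chr2:118529441-118529643. The same change of label was found at Selenoi, an enzyme gene of phosphatidylethanolamine synthesis, with 12 and 10.6.

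Other shared sites at gene ends lay by Ptpro, a receptor tyrosine phosphatase gene, with 26.3 in inguinal and 19.4 in perigonadal fat, by Dgki, a diacylglycerol kinase gene, with 28.6 and 15, and by Glipr2, a Golgi-associated protein gene, with 16.5 and 26.4. The end of the long non-coding RNA gene Lncbate3 scored 14.3 and 14.1, that of Ociad1 15 and 8.82, and that of Cnrip1, a cannabinoid receptor-interacting protein gene, 9.78 and 8.82. In 3′ UTRs the tallest shared site was that of Tacc1, a coiled-coil protein gene of the mitotic spindle, with 18.8 (12.2 to 27.8) and 22 (14.3 to 32.5) at chr8:25156965-25157167. The other shared 3′ UTR sites were low. They lay in Ablim1, an actin-binding protein gene, with 9.03 and 12.3, in Itsn1, an endocytic scaffold gene, with 9.78 and 7.93, in Plod2, a collagen lysyl hydroxylase gene, with 8.27 and 8.82, and in Cxcl9, an interferon-induced chemokine gene, with 12 and 7.05.

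The remaining shared sites were in exons. Exon 2 of 10 of Sesn1, a stress-induced inhibitor of mTORC1, scored 16.5 in inguinal fat, and the perigonadal partner, in an intron by its own annotation, scored 21.2. Exon 2 of 2 of the orphan receptor gene Gpr152 scored 15.8 and 23.8, exon 8 of 15 of the repair nuclease gene Ercc5 12 and 15.9, and exon 9 of 14 of the proliferation marker gene Mki67 10.5 and 16.7. In perigonadal fat exon 3 of 8 of Ccs, the copper chaperone gene of superoxide dismutase, scored 21.2, exon 7 of 9 of the zinc finger gene Hivep3 14.1, and exon 7 of 17 of Anapc5, a gene of the anaphase-promoting complex, 8.82. Their inguinal partners in introns scored 11.3, 10.5 and 9.03. Exon 3 of 5 of C330018D20Rik scored 15.8 in inguinal fat, with an intronic partner of 27.3.

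Over the 24 sites the log2 scores of both lists had a Pearson r of 0.65 and a Spearman rho of 0.67, and over the other 484 shared sites 0.76 and 0.68. These values describe sites that share their libraries, and the 24 sites span a narrower range of heights.

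**Figure D3:**
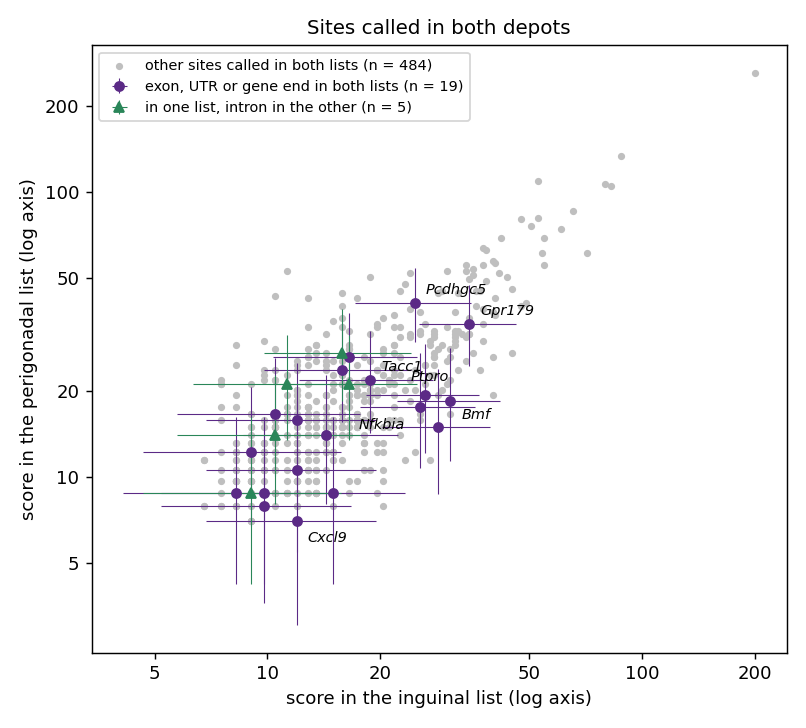
Score in the inguinal list (x, log axis) against score in the perigonadal list (y, log axis) for the sites called in both lists. Purple circles are the 19 sites in an exon, UTR or gene end in both lists, green triangles the 5 annotated so in 1 list, grey points the other 484 shared sites, and bars are Poisson 95% intervals. The coloured sites lie in the lower and middle part of the grey cloud, up to 34.6 and 40.6.

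More than 12 tags but no partner were found for 12 of 63 inguinal members (19.0%, 11.2 to 30.4%) and for 20 of 191 perigonadal members (10.5%, 6.88 to 15.6%). Over the whole lists the shares were 16.9% and 13.5%, so these counts were near the background, and both intervals include it. The tallest inguinal ones were in the 3′ UTR of Rflna, a refilin actin-bundling gene, with 14.3 (8.60 to 22.3), and in exon 9 of 12 of Fads1, the delta-5 desaturase of polyunsaturated fatty acid synthesis, with 13.5 at chr19:10193929-10194131. The single 5′ UTR peak, in exon 2 of 19 of Usp8, a deubiquitinase gene, rested on 12 tags and was not among these. It scored 9.03 and had no partner. In perigonadal fat the tallest was in exon 8 of 11 of Lias, the lipoic acid synthetase gene of mitochondria, with 29.1 (20.03 to 40.9) at chr5:65402527-65402711. Next came exon 3 of 12 of Slc29a1 with 23.8, described below, and a peak of 22.9 at chr8:72815907-72816091. The latter lay in the last exon of a transcript that matched no entry of the gene table. Others were in the 3′ UTR of Bnip1, a SNARE gene, with 15.9, and in a non-coding exon of Timm22, a mitochondrial import gene, with 16.7. In non-coding exons the next in height were B930018H19Rik with 12.3 in perigonadal fat and 4833427F10Rik with 10.5 in inguinal fat. Where a peak has no partner, the other list holds no call at that place, which does not show that BCL6 was absent there.

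Slc29a1, the gene of an equilibrative nucleoside transporter, was the only gene with a member in both lists at positions that did not overlap. Its inguinal member lay at the gene end with 12, and its perigonadal member in exon 3 of 12 with 23.8 (15.7 to 34.6) at chr17:45590001-45590185. Both lists also had a promoter peak of Slc29a1 at the same place, 0.519 kb upstream of its start in inguinal fat with 18.1 and 0.527 kb upstream in perigonadal fat with 22. More than 1 member within a list was found in Selenoi, whose inguinal peaks scored 12 and 10.5, and in Kcnq1ot1, an imprinted antisense RNA, whose perigonadal peaks scored 9.70 each. Of the genes named by the annotation, 6 of 62 inguinal and 52 of 187 perigonadal ones had another peak in the same list that was not a member. Peaks inside the gene and peaks nearest to the gene's promoter were counted, and further members were not. That other peak was within 1 kb of the promoter for 1 and 6 genes. In perigonadal fat these included Cavin1, which encodes a coat protein of caveolae, with 8.82 in its 3′ UTR and 8.82 on its promoter. Neither share was computed for genes of the remaining peaks, and the perigonadal list is the longer one. No trait of the members can therefore be read from these counts of genes. Member peaks lay a median of 196.8 kb from the next peak of their list in inguinal and 135.4 kb in perigonadal fat, and the remaining peaks 335.5 and 159.3 kb. By class the medians were 327.0 and 106.7 kb for promoter peaks, 286.6 and 142.7 kb for intron peaks, and 404.1 and 187.1 kb for intergenic peaks. In perigonadal fat promoter peaks were thus closer to the next peak than members were.

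Many of these peaks lay in one gene but closest to the promoter of another. The annotated transcript could be matched to a gene at the peak for 63 of 63 inguinal and 188 of 191 perigonadal members, and 60 of the 63 and 176 of the 188 lay in or at the end of protein-coding genes. The nearest promoter belonged to another gene for 29 of 63 inguinal (46.0%, 34.3 to 58.2%) and 79 of 188 perigonadal members (42.0%, 35.2 to 49.2%). Of intron peaks more than 1000 bp from a promoter it did so for 210 of 803 inguinal (26.2%, 23.2 to 29.3%) and 516 of 1800 perigonadal ones (28.7%, 26.6 to 30.8%). Both intervals of the members lay above those of the intron peaks. Gene ends and 3′ UTRs lie at the far end of their gene from its start. Whether this position accounts for the contrast was not tested. Exon peaks alone had 27.8% in inguinal fat (12.5 to 50.9%) and 42.7% in perigonadal fat (32.1 to 53.9%). The inguinal interval is wide and includes the share of the intron peaks as well as that of all inguinal members. By class, the share was highest at inguinal gene ends, with 14 of 19 (51.2 to 88.2%), against 22 of 56 at perigonadal gene ends (27.6 to 52.4%). In 3′ UTRs it was 10 of 20 in inguinal and 24 of 45 in perigonadal fat, in exons 5 of 18 and 32 of 75, and in non-coding exons 0 of 5 and 1 of 12. The peak lay upstream of the other gene's promoter in 19 of 29 and 53 of 79 cases. The side was not counted for other peaks, so no background is given.

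**Figure D4:**
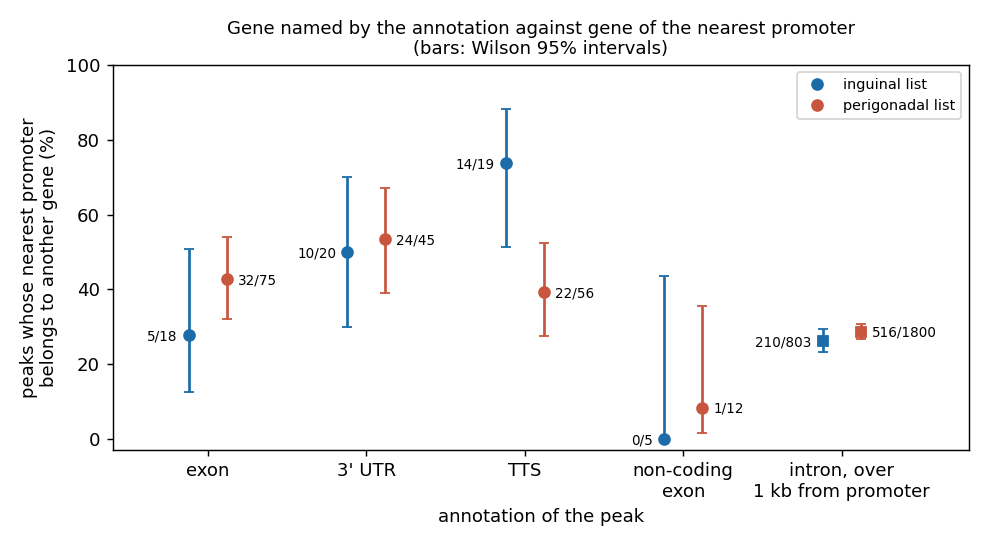
Share of peaks (%) whose nearest promoter belongs to another gene than the annotated transcript, by annotation and depot, with intron peaks over 1 kb from a promoter for comparison (squares). Bars are Wilson 95% intervals and labels give counts. Gene-end peaks of the inguinal list stand at 14 of 19, and non-coding exons at 0 of 5 and 1 of 12.

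Examples show how the gene name depends on this choice. The shared peak at the end of Ptpro was listed under Eps8, an actin regulator, whose promoter was 54.5 kb away. The shared peak at the end of Dgki was listed under Ptn, the gene of the growth factor pleiotrophin, 34.2 kb away, and that at the end of Glipr2 under Ccin, a sperm head protein gene, 3.56 kb away. An inguinal peak of 8.27 that was listed under Bcl2, an apoptosis inhibitor that BCL6 represses in lymphocytes, lay at the end of Kdsr, a sphingolipid synthesis gene, 5.27 kb upstream of Bcl2. In perigonadal fat a peak of 9.70 listed under Srebf1, a lipogenic transcription factor gene, was in the 3′ UTR of Tom1l2, 20.2 kb upstream of it. A perigonadal peak of 7.93 listed under Nfkbiz was in exon 3 of 6 of Nxpe3.

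For 2 inguinal and 8 perigonadal members the nearest promoter by the deposited annotation was that of a microRNA gene. The distances run to the annotated start of the microRNA, which need not be the promoter it is transcribed from. These peaks also count among those whose nearest promoter belonged to another gene, whether or not the microRNA lies inside the annotated gene. The closest were perigonadal peaks at the end of Josd2 (1.26 kb from Mir7052) and in an exon of Troap (1.80 kb from Mir6960), followed by the shared Tacc1 site, 2.17 kb from Mir8108 in inguinal and 2.18 kb in perigonadal fat, and by the inguinal peak in an exon of Fads1 (2655 bp from Mir6993). The scores were 8.82 for Josd2, 10.6 for Troap and 13.5 for Fads1. The mature sequences of Mir7052, Mir6960 and Mir6993 in RefSeq (GRCm38.p6, 5′ to 3′, seed in capitals) are shown because these microRNAs are the names under which the deposited table lists the peaks.
mmu-miR-6993-5p: aGUGGGAGaaacgggugucuguc
mmu-miR-6993-3p: cUUGCGUUuguuuccucacag
mmu-miR-6960-5p: cAGGAUGAgaagaguuuggcug
mmu-miR-6960-3p: aGCCAACCaccucucuccucag
mmu-miR-7052-5p: uGUGGGAAgguggaggccuuu
mmu-miR-7052-3p: gCUCUGCCcccuccuucccag
No capitalised seed occurs more than once among the 6 sequences, but those of miR-6993-5p and miR-7052-5p differ only in their last base. The remaining microRNA genes, Mir1933, Mir7039, Mir194-1, Mir7043 and Mir7660, were 8.45 to 46.7 kb from perigonadal peaks in or at the end of Vps54, Trrap, Rab3gap2, Rassf4 and Cand2.

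Lists of 210 genes for cytokine signalling, insulin signalling, inflammation, the clock, adipocyte identity, corepressors, lymphocyte targets of BCL6, zinc finger factors and extracellular matrix were set beside the members. By the annotated transcript 1 of the 210 genes had an inguinal member and 3 a perigonadal member, that is Nfkbia in inguinal fat and Scd1, Sin3b and Zeb1 in perigonadal fat. By the same assignment the background over all 21896 protein-coding genes was 0.269% in inguinal and 0.804% in perigonadal fat. The 3 perigonadal peaks rested on 10 tags each and scored 8.82. They lay in the 3′ UTR of Scd1, the stearoyl-CoA desaturase gene, in exon 12 of 19 of Sin3b, a scaffold of histone deacetylase complexes, and in the last exon of Zeb1, a transcriptional repressor. Cytokine signalling, insulin signalling, clock and extracellular matrix lists had 0 members in both lists by either assignment. By the nearest promoter, which gives backgrounds of 0.256% and 0.772%, the listed genes were Nfkbia and Bcl2 in inguinal fat and Nfkbia, Nfkbiz, Scd1 and Srebf1 in perigonadal fat.

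Near the distance limit, the closest peaks inside it were inguinal ones at 1004 bp (Wfdc21 gene end, 7.52) and 1063 bp (Pcdhgc5), and perigonadal ones at 1006 bp (Celsr3 exon 1, 8.82) and 1049 bp (Pcdhgc5). The closest outside it were at the ends of Mir148b, 816 bp with 11.3, and Snora75, 814 bp with 27.8, in inguinal fat, and of H4c14, 988 bp with 8.82, and Mir148b, 913 bp with 16.7, in perigonadal fat. Among all peaks of these classes, the limit removed 12 of 75 inguinal and 28 of 219 perigonadal ones. In the RefSeq promoter table, which does not hold every gene, 0 of 61 inguinal and 2 of 185 perigonadal members with an entry on their chromosome were within 1 kb of a start site. They were the perigonadal peaks at the end of Zfp329, near a start of Zscan18, and in a non-coding exon of Gm16497.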

How the data were processed

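The analysis used the deposited peak lists of 1 BCL6 library per depot. Tissue was fixed with disuccinimidyl glutarate for 30 minutes and 1% formaldehyde for 10 minutes, per the labels' protocols. The submitters' processing notes name Bowtie 1.2, HOMER and mm10, and the peak lists are HOMER annotations, per the file headers. The inguinal header names a false discovery rate of 0.001 and the perigonadal header none. The sources used here do not say whether libraries were pooled. The deposited peak score is the authors' value, a whole multiple of the step for 100% of peaks within rounding. The total the score was scaled to is not given, so depth is unknown. The deposited focus ratio is a fraction per peak. The authors' distance to the nearest promoter and annotation were used as given.

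Members followed the rule in the opening. An overlap of at least 1 bp made a partner. The annotated transcript was matched to the RefSeq gene table of GRCm38.p6, the assembly behind mm10, if the gene lay within 1200 bp of the peak. No genome sequence was used here, so peak sequences, motifs and base composition are not analysed. Named genes are the 10 highest members of each list, the shared sites, the 3 highest of each class, members of the gene lists, peaks next to the distance limit and genes with several members. The rule gives 15 shared sites in full. The values of the other shared sites, Fads1, Cavin1, the Gpr179 intron peak, the microRNA-labelled peaks and the examples of neighbouring promoters were chosen after values were seen. The members, lists and rules were chosen with earlier results of these data known. Overlap counting was tested on simulated peaks. Python 3.11.15, pandas 2.3.3, scipy 1.17.1 and matplotlib 3.10.9 were used.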

Additional observations from a re-analysis of the deposited data

How the results depend on the processing

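Another overlap rule (50% of the shorter peak, or centres within 500 bp), autosomes alone, or a distance limit of 500 or 2000 bp left the number of members, their median score and their share with a partner within 1.5 times or within the counting interval in both lists. With peaks of more than 12 tags alone, 31 inguinal and 35 perigonadal members were left, and the perigonadal share with a partner was 40% (14 of 35). It was 19.8% (16 of 81) when only the 1785 tallest perigonadal peaks were used. Of the gene lists, 2 inguinal genes had a member by the nearest promoter, and 0 perigonadal genes by the transcript with more than 12 tags. The alternatives for motifs and base composition were not run. The median peak rests on so few tags that heights of single low peaks cannot be ordered. No paired analysis was possible because each depot had 1 library and no test was made.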
